A study of Homo sapiens with 4 samples.

Results

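The genes described here are 9 sialyltransferases, ST6GAL1, ST3GAL1, ST3GAL2, ST3GAL3, ST3GAL4, ST3GAL5, ST3GAL6, ST6GALNAC4 and ST6GALNAC6, of 20263 genes in the deposited count tables. They were picked by symbol, with the HJ-23 against DMSO contrast already known. Their values in that contrast are therefore given as a description, and nothing is read from the counts of test calls among them. The cells were HCT116, a long-established human line from a colorectal carcinoma with a wild-type genotype label. They received HJ-23 at 30 µM or DMSO at 0.1% for 24 hours before RNA sequencing. The submitters call HJ-23 a piperine derivative. Each group had 2 libraries, and nothing in the labels says that they came from separate cultures, so the spread between them may be technical. Titles and design text name HJ-23, whereas the treatment field of the same samples names HJ-25; the tables carry the letter C for libraries titled HJ-23 and D for those titled DMSO, and every direction below rests on the titles.

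Total counts were 34406649 and 34831207 in HJ-23 replicates 1 and 2 and 31120459 and 29769568 in DMSO replicates 1 and 2. The epithelial label was met by EPCAM, at 265.8 to 272.3 CPM (counts per 1000000 of a library) in HJ-23 and 253.9 to 271.0 CPM in DMSO, and by KRT8, KRT18, KRT19 and CDH1, while the epithelial markers CDX1, VIL1 and LGALS4 were at or near 0. CLDN4 was at 435.1 and 2.27 CPM in HJ-23 replicates 1 and 2 and at 449.2 and 24.4 CPM in DMSO replicates 1 and 2, so this marker went with the replicate number and not with the group. The leukocyte markers PTPRC, CD3E and MS4A1 and the fibroblast markers COL1A2, DCN and LUM had no counts in any library, and CD68 and COL1A1 were the only markers of those lists at 1 CPM or more. Summed, the 10 epithelial markers were at 4484 and 5516 CPM in HJ-23 and 4971 and 4119 CPM in DMSO, the 7 leukocyte markers at 41.8 to 51.6 CPM in HJ-23 and 35.5 to 41.4 CPM in DMSO, and the 6 fibroblast markers at 55.8 to 60.5 CPM in HJ-23 and 61.5 to 63.7 CPM in DMSO. The 4 endothelial markers summed to 1.13 to 1.63 CPM in HJ-23 and 1.47 to 1.58 CPM in DMSO. Libraries differed along GC content within each group: the Spearman correlation with transcript GC content was 0.62 for HJ-23 replicate 2 over replicate 1 and 0.36 for DMSO replicate 1 over replicate 2, across genes.

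Sialyltransferases are Golgi enzymes that move sialic acid from CMP-sialic acid to the end of a growing sugar chain. The family is named by linkage and acceptor: ST6GAL enzymes bond sialic acid to carbon 6 of galactose, ST3GAL enzymes to carbon 3 of galactose, and ST6GALNAC enzymes to carbon 6 of N-acetylgalactosamine. ST6GAL1 caps N-glycans, and its products on growth factor and death receptors have been widely studied in colorectal cancer.

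RefSeq promoter windows (250 bases before to 50 bases after a start, build GRCh38.p14) were found for 7 of the 9 genes, 18 windows in all. The windows of 3 genes are printed because ST6GAL1 had the highest log2 fold change of the 9, ST3GAL4 the next and ST3GAL6 the lowest; for ST3GAL4 and ST3GAL6 the first of several windows is shown. They lie at chr3:186930276-186930575 on the plus strand (ST6GAL1), chr11:126355762-126356061 on the plus strand (ST3GAL4) and chr3:98732012-98732311 on the plus strand (ST3GAL6). Capitals mark matches, on either strand, to the motifs GGGCGG (GC box), CCAAT, ATTTGCAT (octamer), TGATGNAA (core of the amino acid response element), TGACGTCA (cyclic AMP response element) and CACGTG (E-box).
ST6GAL1: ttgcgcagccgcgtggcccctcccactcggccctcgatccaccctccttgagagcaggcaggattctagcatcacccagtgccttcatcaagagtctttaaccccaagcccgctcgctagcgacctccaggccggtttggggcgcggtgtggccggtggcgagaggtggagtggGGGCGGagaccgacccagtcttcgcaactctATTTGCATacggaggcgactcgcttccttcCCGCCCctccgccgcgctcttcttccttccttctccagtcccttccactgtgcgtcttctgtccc
ST3GAL4: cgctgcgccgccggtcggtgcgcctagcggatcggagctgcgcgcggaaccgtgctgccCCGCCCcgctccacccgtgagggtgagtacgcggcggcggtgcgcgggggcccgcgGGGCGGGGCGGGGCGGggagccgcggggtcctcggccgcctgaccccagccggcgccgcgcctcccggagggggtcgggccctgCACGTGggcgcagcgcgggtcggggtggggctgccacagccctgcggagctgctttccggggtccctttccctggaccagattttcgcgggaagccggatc
ST3GAL6: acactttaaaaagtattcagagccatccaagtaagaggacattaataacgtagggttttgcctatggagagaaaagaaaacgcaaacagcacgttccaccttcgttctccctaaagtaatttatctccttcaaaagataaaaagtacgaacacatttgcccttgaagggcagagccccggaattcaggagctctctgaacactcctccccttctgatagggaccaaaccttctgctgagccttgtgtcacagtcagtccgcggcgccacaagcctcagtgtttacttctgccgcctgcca
The ST6GAL1 window had 2 GC boxes and 1 octamer, and the ST3GAL4 window had 4 GC boxes, of which neighbours in a run of 3 share a base, and 1 E-box. The octamer was added to the search after the ST6GAL1 window had been read. No listed motif was present in the ST3GAL6 window shown, while the next window of that gene held 3 GC boxes and 1 CCAAT. Among all 35116 promoter windows, 45.0% held a GC box, 34.6% CCAAT, 7.26% the E-box, 3.62% the amino acid response element core, 1.85% the cyclic AMP response element and 1.77% the octamer. GC content was 64.0% in the ST6GAL1 window, 79.3% in the ST3GAL4 window shown and 47.0% in the ST3GAL6 window shown, against a median of 58.7% for all windows. It depended on the window: the other ST3GAL4 windows were at 50.3% and 59.7%, and the other ST3GAL6 windows at 72.7%, 63.7% and 45.7%. A match is only a run of letters and was not tied to any factor, and the reads do not say which start was used.

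ST6GAL1 (ENSG00000073849) was the member with the most distinct groups. It was at 20.1 and 22.0 CPM in HJ-23 replicates 1 and 2, against 5.95 and 6.12 CPM in DMSO replicates 1 and 2 (CPM is the count over the library size scaled by edgeR's TMM factors). The raw counts behind these levels were 712 and 757 in HJ-23 and 185 and 179 in DMSO. Neither HJ-23 value came near a DMSO value, and within a group the libraries were within 1.095-fold of each other. The mean was 21.0 ± 1.35 CPM in HJ-23 and 6.04 ± 0.12 CPM in DMSO (SD, n = 2 each), a log2 fold change of 1.80 (SE 0.18), or 3.48-fold. Taking single libraries, the smallest HJ-23 to DMSO ratio was 3.28 and the largest 3.69. By log2 fold change ST6GAL1 stood at position 49 of 14062 genes tested. In bulk RNA a larger share of cells with the transcript and more transcript per cell cannot be told apart.

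**Figure D1:**
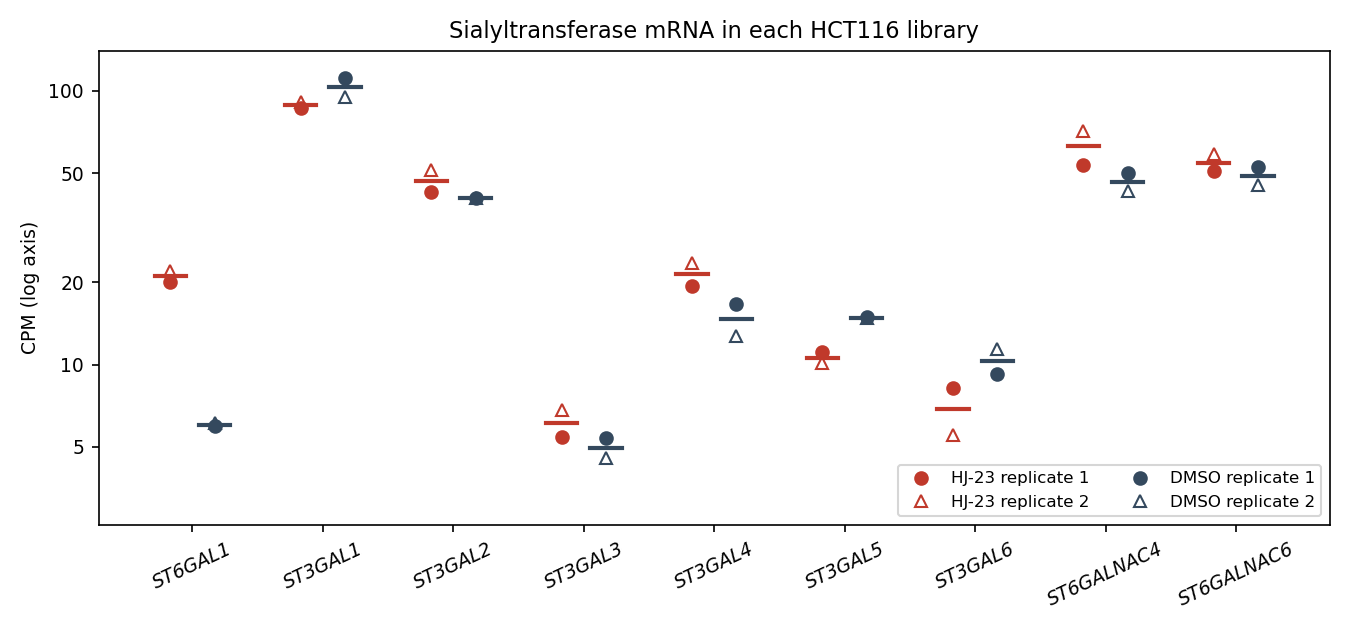
CPM on a log axis for each of the 9 sialyltransferases, HJ-23 in red and DMSO in dark blue, with filled circles for replicate 1, open triangles for replicate 2 and a bar at the group mean. ST6GAL1 is at 20.1 and 22.0 CPM in HJ-23 and at 5.95 and 6.12 CPM in DMSO; the other 8 genes differ far less between groups.

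The 3 enzymes that put sialic acid on N-acetyllactosamine chains from the carbon 3 side did not share a direction. ST3GAL4 (ENSG00000110080), which makes precursors of sialyl Lewis antigens, was at 19.4 and 23.5 CPM in HJ-23 against 16.6 and 12.7 CPM in DMSO. Its log2 fold change was 0.55 (SE 0.21), and the nearest HJ-23 and DMSO libraries were 1.17-fold apart, less than the 1.31-fold between the DMSO libraries. ST3GAL6 (ENSG00000064225), which acts on similar chains, was at 8.21 and 5.52 CPM in HJ-23 against 9.24 and 11.3 CPM in DMSO, a log2 fold change of -0.58 (SE 0.26). Both HJ-23 libraries were below both DMSO libraries, but HJ-23 replicate 2 was at 0.67 of replicate 1, whereas HJ-23 replicate 1 was at 0.89 of the nearer DMSO library. ST3GAL3 (ENSG00000126091), which prefers type 1 chains, was at 5.44 and 6.83 CPM in HJ-23 and 5.41 and 4.55 CPM in DMSO, a log2 fold change of 0.30 (SE 0.23). The lower HJ-23 library was only 1.01-fold above the higher DMSO library.

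Among the enzymes of mucin-type O-glycans, ST3GAL1 (ENSG00000008513), which caps the core 1 disaccharide, was at 86.2 and 90.8 CPM in HJ-23 against 111.1 and 94.7 CPM in DMSO. The gap between the groups was smaller than the gap between the DMSO libraries (log2 fold change -0.22, SE 0.15). ST3GAL2 (ENSG00000157350), which acts on the same disaccharide and on gangliosides, was at 42.5 and 51.5 CPM in HJ-23 and at 40.7 and 40.6 CPM in DMSO (log2 fold change 0.21, SE 0.17). HJ-23 replicate 1 was only 1.04-fold above the higher DMSO library. ST6GALNAC4 (ENSG00000136840), which adds a further sialic acid to an already sialylated core 1 chain, was at 53.7 and 71.5 CPM in HJ-23 and at 50.1 and 43.0 CPM in DMSO. Its log2 fold change was 0.43 (SE 0.20), and HJ-23 replicate 2 was the library that stood highest.

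In the glycolipid branch, ST3GAL5 (ENSG00000115525), the synthase of ganglioside GM3, was at 11.1 and 10.1 CPM in HJ-23 against 14.9 and 14.7 CPM in DMSO. Both HJ-23 libraries were below both DMSO libraries, at 0.68 to 0.75 of their level, and the log2 fold change was -0.48 (SE 0.17). ST6GALNAC6 (ENSG00000160408), which sialylates N-acetylgalactosamine of gangliosides and makes disialyl Lewis a, was at 50.7 and 58.7 CPM in HJ-23 and 52.8 and 45.2 CPM in DMSO, with overlapping groups (log2 fold change 0.16, SE 0.17).

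**Figure D2:**
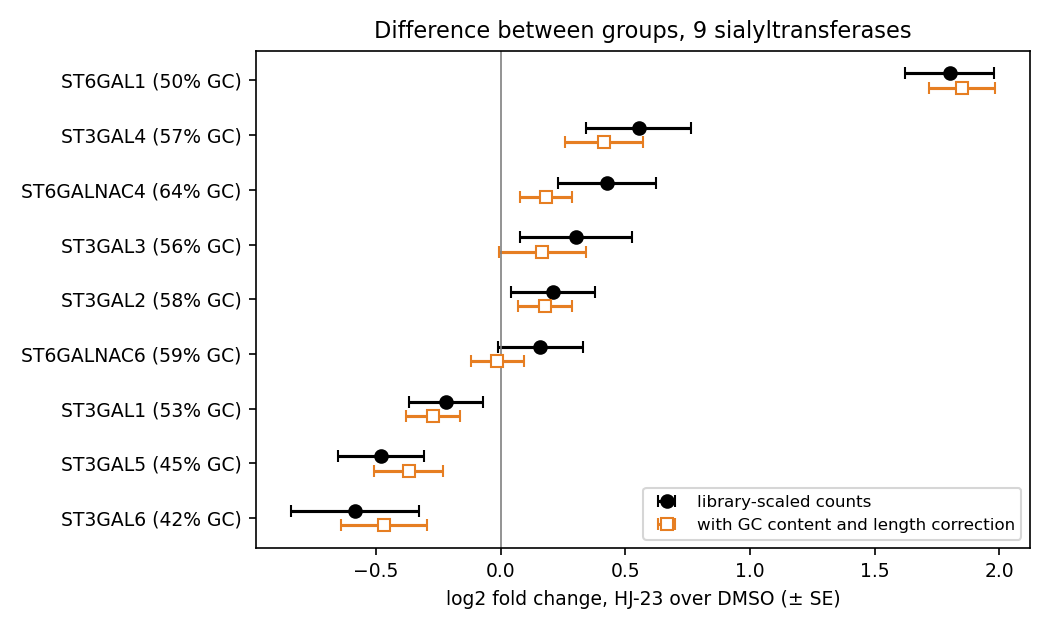
Log2 fold change of each sialyltransferase, HJ-23 over DMSO, with its standard error, from library-scaled counts (black circles) and after correcting each library for GC content and transcript length (orange squares). ST6GAL1 is at 1.80 uncorrected and 1.85 corrected, ST6GALNAC4 at 0.43 and 0.18, and ST6GALNAC6 at 0.16 and -0.014.

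All 9 genes passed the filter on low counts. Their log2 fold changes were positive for 6 and negative for 3, with a median of 0.21 against 0.01 for all genes tested. The groups did not overlap for 8 of the 9, with HJ-23 higher for 5 and lower for 3; of all genes tested 46.0% did not overlap, 24.8% with HJ-23 higher and 21.2% with HJ-23 lower. At a Benjamini-Hochberg adjusted p below 0.05 edgeR's quasi-likelihood test called 0 of the 9 (3 at an unadjusted p below 0.05) and DESeq2 called 1, ST6GAL1; over all genes edgeR called 0.0853% (0.0569% higher and 0.0284% lower in HJ-23) and DESeq2 2.31%, and 12.0% were below 0.05 unadjusted in edgeR. At least a 2-fold difference was seen for 1 of the 9, ST6GAL1, and for 3.41% of genes tested. The members were chosen on this contrast, so nothing is read from these counts.

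Fold changes of the 8 genes other than ST6GAL1 tended to rise with GC content, and the source of this trend was not tested. ST3GAL6 and ST3GAL5, with 42.0% and 44.9% GC in their transcripts, had the lowest log2 fold changes, and the genes above 55% GC all had positive ones; the Spearman correlation was 0.45 over all 9 genes and 0.71 over the 8 without ST6GAL1, both a description over genes that share the same 4 libraries. All genes tested showed the same trend, where the median log2 fold change was -0.13 for 2790 genes of 40 to 45% GC and 0.21 for 2697 genes of 60% or more. With a per-library correction for GC content and length, ST6GALNAC4 had 0.18 (SE 0.10), ST3GAL3 0.17 (SE 0.17) and ST6GALNAC6 -0.014 (SE 0.11), while ST3GAL4 had 0.41 (SE 0.15), ST3GAL5 -0.37 (SE 0.14) and ST3GAL6 -0.47 (SE 0.17). ST3GAL2 had 0.18 (SE 0.11), and ST3GAL1 had -0.27 (SE 0.11), lower than its uncorrected -0.22. ST6GAL1, at 50.2% GC, had 1.85 (SE 0.13). The correction takes out any difference between libraries that follows GC content or length, whatever its source.

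**Figure D3:**
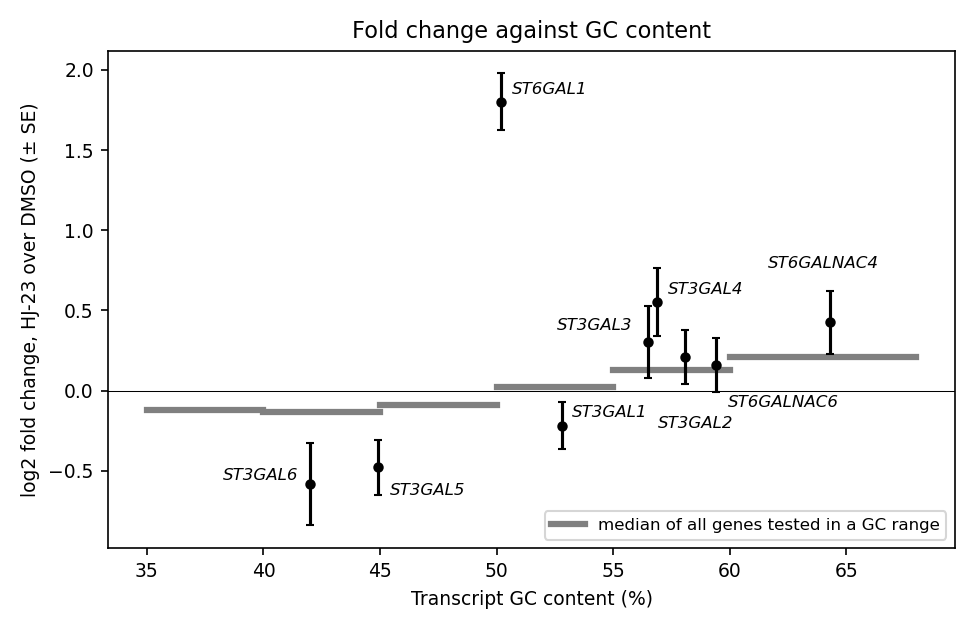
Log2 fold change, HJ-23 over DMSO, with its standard error against transcript GC content for the 9 sialyltransferases; grey bars are medians of all genes tested in 6 GC ranges, the lowest and highest ranges drawn shortened. ST6GAL1 at 50.2% GC stands far above the grey bars, and ST3GAL6 at 42.0% GC is the lowest of the 9.

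Summed over the 9 genes, the level was 297.3 and 340.4 CPM in HJ-23 replicates 1 and 2 and 306.8 and 273.0 CPM in DMSO replicates 1 and 2, so the groups overlapped. The 6 ST3GAL genes summed to 172.9 and 188.2 CPM in HJ-23 and to 197.9 and 178.6 CPM in DMSO, also overlapping. ST6GALNAC4 and ST6GALNAC6 together were at 104.4 and 130.2 CPM in HJ-23 and 102.9 and 88.3 CPM in DMSO.

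Levels of different genes were compared as CPM per kilobase of transcript, using the median length of a gene's protein-coding transcripts in GENCODE 29. On that scale the order in HJ-23 was ST3GAL1 (98.8), ST6GALNAC4 (46.3), ST6GAL1 (35.3), ST6GALNAC6 (22.8), ST3GAL4 (12.7), ST3GAL6 (9.05), ST3GAL2 (7.06), ST3GAL5 (4.63) and ST3GAL3 (3.33), with the ranges of ST3GAL6 and ST3GAL2 overlapping and other neighbours apart. In DMSO it was ST3GAL1 (115.0), ST6GALNAC4 (34.5), ST6GALNAC6 (20.4), ST3GAL6 (13.6), ST6GAL1 (10.1), ST3GAL4 (8.62), ST3GAL5 (6.46), ST3GAL2 (6.10) and ST3GAL3 (2.70), with no neighbouring ranges overlapping. The order depends on the length used. The median transcript is shorter than the longest coding region for ST6GAL1 (596 against 1218 bases), ST3GAL1 (895 against 1020) and ST3GAL6 (758.5 against 1152). With the longest transcript of each gene (4645 bases for ST6GAL1), ST6GAL1 was at position 6 in HJ-23 at 4.53 CPM per kilobase. In DMSO ST6GAL1 was last at 1.30 CPM per kilobase. ST6GALNAC4 then led both groups, at 37.0 CPM per kilobase in HJ-23 and 27.5 in DMSO. ST3GAL1 was then at 12.7 CPM per kilobase in HJ-23 and 14.8 in DMSO, below ST6GALNAC4 and ST6GALNAC6 in both groups. The lead of ST3GAL1 was therefore seen with the median length only, of these 2 lengths. ST6GAL1 made up 14.8% and 14.6% of the summed per-kilobase level in HJ-23 and 4.33% and 5.03% in DMSO with the median length, and 4.79% and 4.40% in HJ-23 and 1.44% and 1.70% in DMSO with the longest. By either length both HJ-23 shares were above both DMSO shares.

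**Figure D4:**
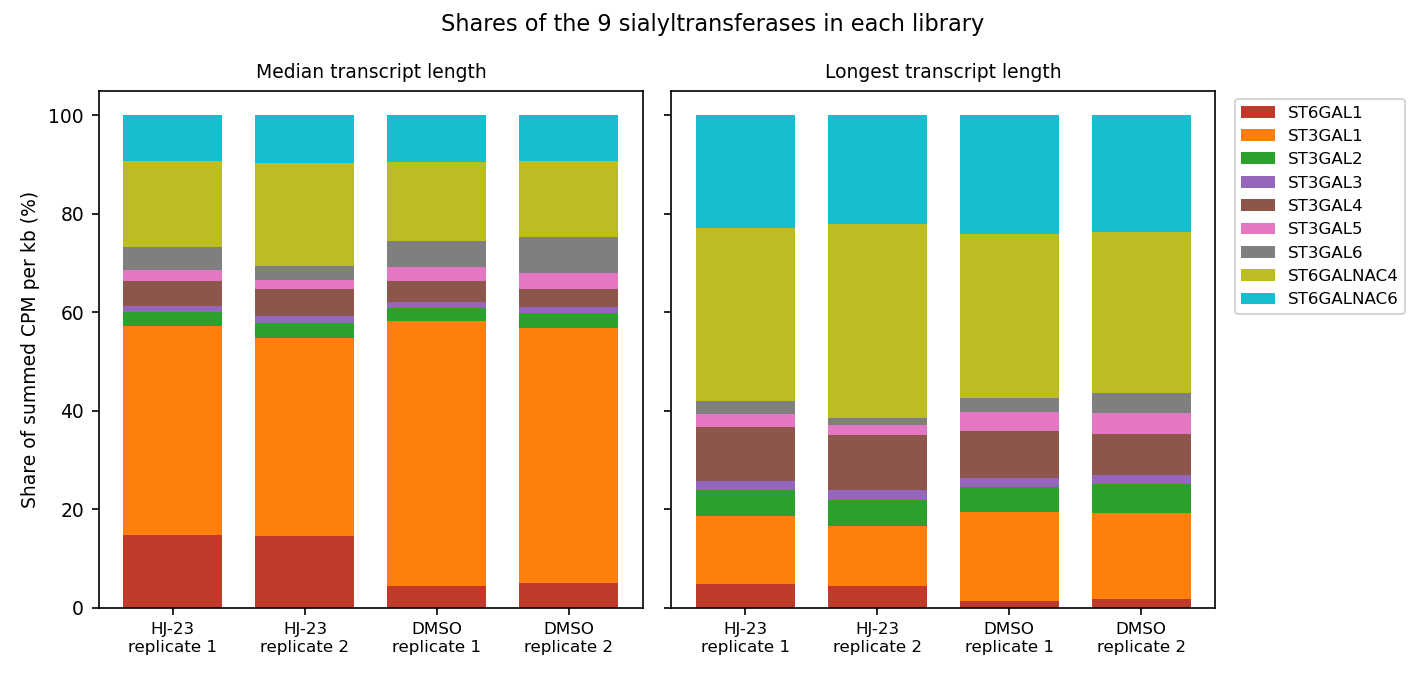
Stacked shares, in percent, of the 9 sialyltransferases in their summed CPM per kilobase, for each HJ-23 and DMSO library, with the median (left) and the longest (right) transcript length. The red ST6GAL1 block at the base is 14.8% and 14.6% in HJ-23 against 4.33% and 5.03% in DMSO on the left, and 4.79% and 4.40% against 1.44% and 1.70% on the right.

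Some counts may be shared with other genes. In GENCODE 29, exons of ST3GAL6 overlap 235 bases of DCBLD2 on the opposite strand, which had 20654 and 17477 counts in HJ-23 and 17274 and 17629 in DMSO. Exons of ST3GAL3 and ST6GALNAC6 overlap same-strand protein-coding genes that are not rows of the tables, over 1951 and 2494 bases. Exons of ST3GAL2 overlap an antisense gene on the opposite strand, also absent from the counted genes, over 590 bases. Further genes without counts overlap exons of ST3GAL6, a same-strand pseudogene over 354 bases and an antisense gene over 107 bases. For ST3GAL3 they are an antisense gene over 113 bases and a same-strand microRNA gene over 62 bases. The labels and files give no strand setting for the counting, and the part of these overlaps in the values was not tested. In that annotation no other gene shared exon bases with ST6GAL1, ST3GAL1, ST3GAL4, ST3GAL5 or ST6GALNAC4.

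Of 11 other human sialyltransferase genes, 5 passed the filter on low counts, with a median log2 fold change of -0.20. Past the adjusted threshold edgeR and DESeq2 each called 0 of the list, against 0.0853% and 2.31% of all genes they tested. At an unadjusted p below 0.05 edgeR had 0 of the 5, against 12.0% of all genes tested. With 5 genes nothing is read from these counts. ST6GAL2, the other enzyme of the ST6GAL1 linkage, and the polysialic acid or ganglioside enzymes ST8SIA1, ST8SIA3 and ST8SIA4 had no counts in any library. ST6GALNAC2, an O-glycan enzyme, was at 5.84 and 6.54 CPM in HJ-23 and 6.18 and 5.71 CPM in DMSO, with overlapping groups. The other 4 tested had means from 0.56 to 4.78 CPM in HJ-23 and 0.55 to 5.49 CPM in DMSO; ST8SIA5, ST8SIA6 and ST6GALNAC5 had the smallest p of the list, with adjusted p-values of 0.701, 0.710 and 0.751 (edgeR).

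The pathway around these enzymes was read from lists of 92 genes, those 11 included, of which 80 were tested. Past the adjusted threshold of 0.05 edgeR called 0 in either direction, against 0.0853% of all genes tested. DESeq2 called 1, against 2.31% of all genes it tested. In edgeR 9 of 80, or 11.2%, were below 0.05 unadjusted, against 12.0% of all genes tested. At these shares few calls are found in any list of this size, and nothing is read from the counts. The median log2 fold change was -0.03, against 0.01 for all genes tested.

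The 1 listed gene that DESeq2 called was B3GALT5 (ENSG00000183778), a galactosyltransferase that builds the type 1 chains on which Lewis a antigens are made in digestive epithelia. It was at 10.1 and 8.37 CPM in HJ-23 against 2.41 and 2.43 CPM in DMSO, with counts of 358 and 288 in HJ-23 and 75 and 71 in DMSO. Both HJ-23 libraries were at least 3.45-fold above both DMSO libraries. Its log2 fold change was 1.93 (SE 0.21), with an edgeR adjusted p of 0.0735 and a DESeq2 adjusted p of 2.48e-06. At the adjusted threshold over all genes it therefore missed the call in edgeR and passed in DESeq2. B3GALT5 is in a list chosen with these results known, so its p-values are a description and not an independent finding. Leaving out DMSO replicate 1 or DMSO replicate 2 gave edgeR adjusted p-values of 4.96e-04 and 0.00109, while leaving out HJ-23 replicate 1 or HJ-23 replicate 2 gave 0.136 and 0.179, not called. Over all alternatives the adjusted p ranged between 1.3e-06 and 0.179, and 6 of the 12 gave no call. No other gene of the lists had a log2 fold change above 0.66.

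The Lewis and fucosylation list that holds B3GALT5 had 10 of 13 genes tested and a median of -0.07 on the log2 scale; 4 of the 10, B3GALT5 included, were below 0.05 unadjusted, where 12.0% of all genes tested were. The lists were chosen with these results known, and nothing is read from that count. FUT11, a fucosyltransferase, was at 27.0 and 28.2 CPM in HJ-23 against 52.1 and 38.9 CPM in DMSO (log2 fold change -0.72, SE 0.20, adjusted p = 0.309, edgeR). SLC35C1, the Golgi GDP-fucose transporter, was at 24.4 and 27.8 CPM in HJ-23 and 19.1 and 19.0 CPM in DMSO (0.46, SE 0.17, adjusted p = 0.380, edgeR).

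Sialic acid supply had 10 of 11 genes tested, 3 with positive and 7 with negative log2 fold changes and a median of -0.12. None of the 10 was below 0.05 unadjusted in edgeR, where 12.0% of all genes tested were. GNE, the first enzyme of sialic acid synthesis, was at 16.1 and 32.4 CPM in HJ-23 against 40.6 and 43.6 CPM in DMSO (log2 fold change -0.80, SE 0.33, adjusted p = 0.419, edgeR). Both HJ-23 libraries lay below DMSO, but they were 2.01-fold apart from each other. Leaving out HJ-23 replicate 1 gave a log2 fold change of -0.40, and leaving out replicate 2 of that group gave -1.41. NANP, the phosphatase of the last step before free sialic acid, and PGM3, of the hexosamine pathway, had log2 fold changes of -0.21 (adjusted p = 0.646, edgeR) and -0.19 (adjusted p = 0.675, edgeR). Sialidases and genes of sialic acid modification and export had 7 of 8 tested and a median of 0.05; the sialic acid O-acetyltransferase CASD1 had -0.45, the esterase SIAE 0.24 and the lysosomal sialic acid exporter SLC17A5 -0.14, with adjusted p-values from 0.542 to 0.706 (edgeR).

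Enzymes that build the acceptor chains also had few large differences. Of 18 N-glycan genes, all tested, 6 were positive and 12 negative (median log2 fold change -0.13). MGAT4B, a branching N-acetylglucosaminyltransferase, was at 127.2 and 156.8 CPM in HJ-23 and 98.0 and 93.5 CPM in DMSO (0.57, SE 0.16, adjusted p = 0.309, edgeR). The mannosidases MAN2A1 and MAN1A2 had log2 fold changes of -0.42 and -0.44 (adjusted p = 0.406 and 0.458, edgeR). The 17 tested O-glycan core genes had a median of 0.0036; GCNT1, GALNT4 and C1GALT1, the core 1 synthase, had -0.46, -0.47 and -0.50 (adjusted p = 0.389, 0.415 and 0.427, edgeR). The 11 glycosphingolipid genes had a median of -0.02, with B3GNT5 at -0.57, UGCG, the glucosylceramide synthase, at -0.31 and B4GALT5, a lactosylceramide synthase, at 0.30 (adjusted p = 0.376, 0.458 and 0.431, edgeR).

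ST6GAL1 protein is shed from the Golgi by proteases, of which BACE1 and SPPL3 were listed. SPPL3 was at 58.9 and 62.5 CPM in HJ-23 and 53.5 and 54.9 CPM in DMSO (log2 fold change 0.16, SE 0.14, adjusted p = 0.661, edgeR). BACE1 was at 39.0 and 34.4 CPM in HJ-23 and 22.6 and 43.0 CPM in DMSO, with overlapping groups (0.16, SE 0.31, adjusted p = 0.858, edgeR); without DMSO replicate 1 its log2 fold change was -0.23.

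**Figure D5:**
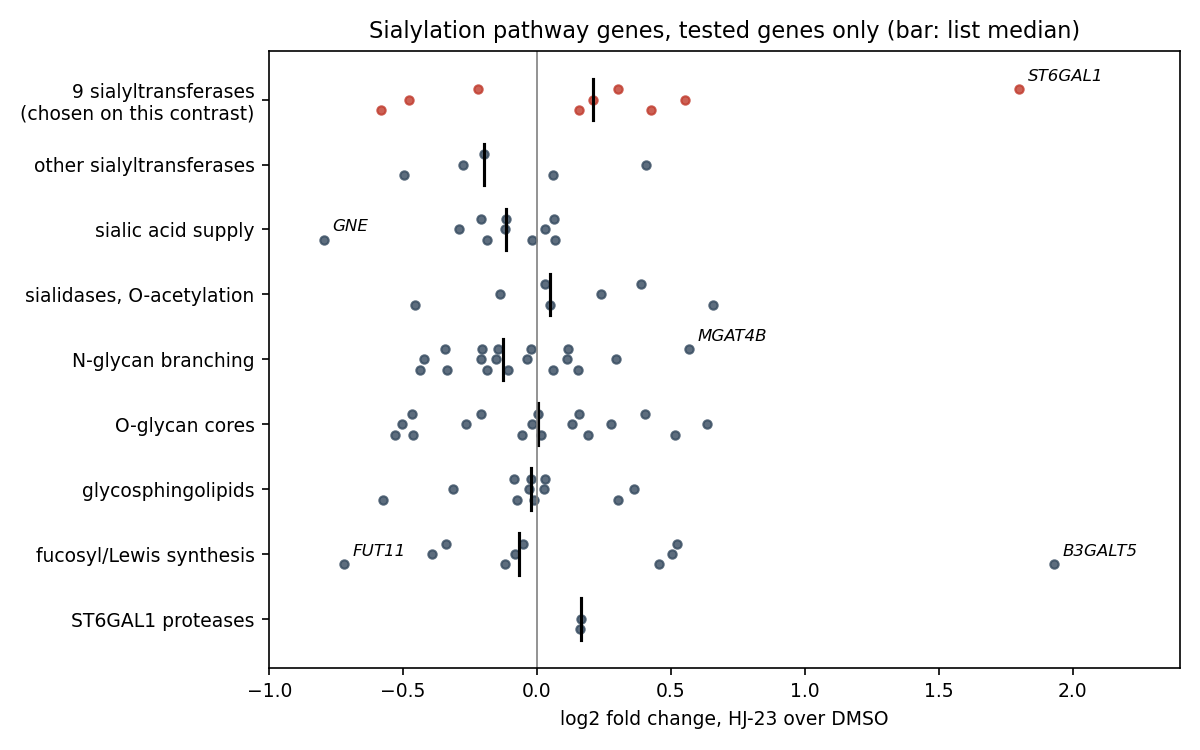
Log2 fold change, HJ-23 over DMSO, of each tested gene, in rows by list, with a black bar at each list's median and the 9 sialyltransferases in red at the top. ST6GAL1 at 1.80 and B3GALT5 at 1.93 stand alone on the right; the other genes lie between -0.80 and 0.66.

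Genes whose log2 CPM followed ST6GAL1 most closely over the 4 libraries, among 10094 genes with a mean of at least 10 CPM, were RANBP1 (Pearson r 0.99997), RRBP1 (0.99997) and OSGIN1 (0.99978). OSGIN1, an oxidative stress-induced growth inhibitor, was at 83.9 and 90.0 CPM in HJ-23 and 43.6 and 44.5 CPM in DMSO. RANBP1, a partner of the Ran GTPase, was at 92.9 and 94.0 CPM in HJ-23 and 76.6 and 76.9 CPM in DMSO. RRBP1, a ribosome-binding protein of the endoplasmic reticulum, was at 326.7 and 331.2 CPM in HJ-23 and 270.8 and 272.5 CPM in DMSO. With 4 libraries that share 2 groups, 164 genes (1.62%) had r above 0.99, so these are only a description.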

How the data were processed

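RNA sequencing counts came from 2 HJ-23 and 2 DMSO libraries of HCT116 cells. The authors deposited raw counts per Ensembl gene, whole numbers with different totals per library. FastQC, Trimmomatic, HISAT2, bedtools and RSEM are named, without roles or versions, per the submitters' processing notes; no source used here gives the genome build, annotation or strand setting. In each library 69.6% to 72.3% of counts of 1 to 8 were even, against 49.7% to 50.8% of counts above 50; the reason was not tested, and counting error at low counts may be larger than single fragments would give. Of 20263 IDs, 20148 were named from the supplied gene name table and 76 from GENCODE 29.

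Counts were tested with edgeR 4.0.16 (R 4.3.3): TMM scaling, filterByExpr, robust quasi-likelihood F-test, Benjamini-Hochberg adjustment over 14062 genes, threshold 0.05, with 2 residual degrees of freedom. The standard error is the absolute log2 fold change over the root of F. DESeq2 1.42.0, other scalings and filters, a replicate block, a GC content and length correction with 5-degree splines, and leaving out each library were alternatives. Log2 CPM for the correlation with ST6GAL1 used a prior count of 2. Scripts were tested on simulated counts.

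The members and gene lists were chosen with earlier results of these data known. Text names all members, per list the 3 tested genes with the smallest p and any past the threshold, and the 3 genes most correlated with ST6GAL1. With no independent cultures stated, p-values set the group difference against the spread between libraries only, and that spread may be technical. Totals of 29769568 to 34831207 counts limit precision mainly for genes near 1 CPM.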

Additional observations from a re-analysis of the deposited data

How the results depend on the processing

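Over 12 alternatives the log2 fold change of ST6GAL1 lay between 1.71 and 1.85, given as a description. ST6GALNAC6 ranged between -0.014 and 0.27 and changed sign in 2; the other 7 members kept their sign in all 12, ST3GAL6 between -0.92 and -0.35. Over all genes edgeR called 8 higher and 4 lower in HJ-23. Counts were 18 and 13 without a filter on low counts, 161 and 150 with DESeq2, 20 and 13 with the GC content and length correction, and 136 and 158 with a replicate block (7 and 5 with both block and correction). Leaving out 1 library gave 0 to 112 higher and 0 to 161 lower, 0 without either HJ-23 library (3501 and 1377 genes at an unadjusted p below 0.05 without replicate 1 and without replicate 2). The lone library was then assumed to vary like the other group. The labels do not say whether replicate numbers pair the libraries. Over genes tested, the replicate 1 minus replicate 2 difference had a correlation of -0.18 between the groups. That correlation cannot settle the pairing, because libraries also differed along GC content. CLDN4 and MGAT5 went with the replicate number in both groups. Pairing the replicate numbers crosswise, chosen after seeing the data, gave 454 higher and 512 lower. The fucosylation list had 1 gene past the threshold, B3GALT5, in 6 alternatives (no filter, DESeq2, replicate block, GC content and length correction, without DMSO replicate 1 and without DMSO replicate 2). The sialidase list had 1, NEU3, without DMSO replicate 2, when DMSO replicate 1, the library low in NEU3, was the lone DMSO library, so leave-one-out counts were 0 to 1 for both lists. Signs turned for BACE1 (-0.23 to 0.67 when leaving out 1 library), SIAE (-0.12 to 0.49), ST8SIA5 (-0.90 to 0.032) and SLC17A5 (0.014 with the correction, 0.0048 with block and correction). GNE ranged between -1.41 and -0.40 when leaving out 1 library. Some list medians also turned sign: the sialic acid supply list was at 0.0009 with the correction and 0.0008 with block and correction, other sialyltransferases at 0.032 and proteases at -0.042 without DMSO replicate 1, and sialidases at -0.089 without HJ-23 replicate 2. The O-glycan list ranged between -0.066 and 0.034 and the glycosphingolipid list between -0.11 and 0.0056. The fucosylation list kept its sign and was at -0.21 without HJ-23 replicate 2. The cause was not tested.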

Other observations

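Some listed genes differed more between replicates than between groups; these were chosen after their values were seen. NEU3, a plasma membrane sialidase, was at 47.2 and 37.7 CPM in HJ-23 replicates 1 and 2 and at 5.57 and 48.3 CPM in DMSO replicates 1 and 2, so DMSO replicate 1 stood apart. Its log2 fold change was 0.66, with an adjusted p of 0.819 (edgeR); NEU3 was past the threshold in 1 alternative, without DMSO replicate 2, which leaves the outlying library as the lone DMSO library. MGAT5, which makes the branched N-glycans of many carcinomas, was at 81.4 and 25.1 CPM in HJ-23 and at 95.8 and 38.7 CPM in DMSO, high in both replicates 1 and low in both replicates 2 (log2 fold change -0.34, adjusted p = 0.870, edgeR). Of 76 members and listed genes averaging 5 CPM or more, 3 (3.95%) had replicates at least 2-fold apart within a group, against 3.53% of all 11236 tested genes at that level. None of the 9 sialyltransferases did.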
